A study of Mus musculus with 8 samples.

Results

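The BCL2 family death regulators described here were 10 mouse genes, *Bcl2*, *Bcl2l1*, *Mcl1*, *Bax*, *Bak1*, *Bad*, *Bid*, *Bcl2l11*, *Bbc3* and *Pmaip1*, taken by their gene symbols from a table of 55414 genes. All 10 were found, and 9 of them passed the filter on low values, beside 13526 genes of the whole table. Their transcripts were measured by RNA sequencing in 8 libraries of B16F10 cells, a melanoma line from C57BL/6 mice, with 2 libraries in each of 4 groups after 24 h of culture. The study altered *Ppif*, the gene of cyclophilin D (CypD), a mitochondrial matrix protein that promotes opening of the mitochondrial permeability transition pore. WT cells and CypD KO cells, labelled *ppif* knockout, were kept at 21% oxygen. Control cells, a stable line carrying the empty pcDNA vector, and cells labelled CypD OE, a stable line made to overexpress *Ppif* from pcDNA, were kept at 1% oxygen. CypD KO cells were made with CRISPR/Cas9 and puromycin and grown from selected clones, and both pcDNA lines were selected with G418, so each altered group may hold features of its clones as well as of *Ppif*. The labels do not say whether the 2 libraries of a group came from separate cultures, so the tests measure the spread between these libraries, which may be technical. Control and WT differed in oxygen and in the vector, and these cannot be told apart.

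BCL2 family proteins decide whether the outer mitochondrial membrane stays closed. BAX and BAK, the products of *Bax* and *Bak1*, form pores in that membrane and release cytochrome c. BCL2, BCL-XL (from *Bcl2l1*) and MCL1 bind and restrain them, and the BH3-only proteins BAD, BID, BIM (from *Bcl2l11*), PUMA (from *Bbc3*) and NOXA (from *Pmaip1*) are the sensors that bind the protectors or activate the pore formers. Much of the control of these proteins lies in their stability, cleavage and phosphorylation, which transcript levels do not show. The permeability transition pore, which CypD acts on, belongs to the inner membrane and is a separate structure.

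*Ppif*, the targeted gene, stood at 50.7 and 49.99 TPM (a transcript level per length, scaled alike in every library) in the WT pair and fell to 10.4 and 12.1 in the CypD KO pair, with a log2 fold change of -2.07 (adjusted p = 3.81e-06, limma). The Control pair held 44.6 and 42.3 TPM and the CypD OE pair 50.3 and 49.3. That log2 fold change of 0.19 did not pass the threshold (adjusted p = 0.0794), so each direction given for CypD OE below rests on the label of its libraries. All 7 melanocyte markers examined were expressed in every library. Their summed level was 15665 to 15755 TPM in WT, 12433 to 12587 in CypD KO, 20446 to 20984 in Control and 13586 to 13758 in CypD OE. In CypD KO against WT 1 of the 7 was called higher and 5 lower, in CypD OE against Control 1 higher and 4 lower, and in Control against WT 6 higher and 0 lower. Over all tested genes the shares called higher and lower were 30.1% and 18.4%, 19.0% and 18.3%, and 12.1% and 12.1% in the same order. All 5 epithelial markers were at 0. Of 6 leukocyte markers, *Cd68* alone passed the filter, with *Cd3e* and *Adgre1* at 0 in every library and *Ptprc* no higher than 0.02 TPM. The summed level of the leukocyte list was 21.9 to 23.4 TPM in CypD KO and 1.13 to 4.81 TPM elsewhere, nearly all of it *Cd68*. The 6 fibroblast markers summed to 34.2 to 37.2 TPM in CypD KO and 9.23 to 21.0 TPM elsewhere, with *Dcn* at 0 throughout. Only *Postn* and *Col1a2* of them passed the filter, and they went opposite ways, *Postn* with a mean of 33.0 TPM in CypD KO and 8.06 in WT, and *Col1a2* with 1.63 and 7.95. The 4 endothelial markers summed to at most 1.2 TPM. The part of these markers in the results below was not tested.

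Every log2 fold change is on the scale of log2(TPM + 1), which understates the change of the lowest genes, and was called where its adjusted p over all tested genes was under 0.05. In this bulk RNA, fewer cells expressing a gene and less of its RNA per cell cannot be told apart. With 2 libraries against 2, an exact two-sided permutation test of a single gene cannot go below p = 0.333, so the calls come from the fit across all genes.

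Between CypD KO and WT cells, 7 of the 9 members tested differed, 6 of them higher in CypD KO. *Bcl2l1* rose 2.87-fold, *Bbc3* 2.92-fold, *Bcl2l11* 1.99-fold, *Bid* 1.45-fold and *Mcl1* 1.34-fold as ratios of mean TPM, so both protectors and BH3-only genes were among the risers. *Bax* was 1.07-fold higher in TPM as deposited but not after rescaling (log2 fold change -0.00045), and *Bak1* was 0.87 times its WT level. Calls in this comparison took in 30.1% of all tested genes as higher and 18.4% as lower. Over the 9 members the log2 fold change had a median of 0.42, and over all tested genes a median of 0.089. After rescaling the libraries by median-of-ratios size factors, the members split into 5 higher and 1 lower, while the share of all calls that were higher went from 62.1% to 49.4%. Of the 13526 tested genes, 3290 were then called higher and 3364 lower.

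Between the libraries labelled CypD OE and Control, 5 of the 9 members differed, 2 higher and 3 lower. *Bid* was 1.98-fold and *Bcl2l1* 1.497-fold higher, and *Bcl2*, *Mcl1* and *Bcl2l11* were at 0.76, 0.84 and 0.60 times their Control level. Calls here took in 19.0% of all tested genes as higher and 18.3% as lower. The members had a median log2 fold change of -0.071, and all tested genes one of 0.0021. This comparison shares no library with CypD KO against WT. *Bcl2l1* and *Bid* were therefore higher in both altered groups than in their own reference group, whereas *Mcl1* and *Bcl2l11* were higher in CypD KO and lower in the libraries labelled CypD OE.

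Between Control and WT, *Bax* and *Bid* were called lower in Control and none of the 9 members was called higher, where 12.1% of all tested genes were called in each direction. At an unadjusted p under 0.05, *Bcl2l1* would be added as higher and *Bak1* as lower in Control. CypD KO exceeded Control in 7 members and was below it in 0, and that comparison, which equals the difference between the CypD KO and Control responses because both are taken against the same WT libraries, called 27.4% of all tested genes higher and 16.5% lower. Of these calls, that of *Bcl2l11* was lost without CypD KO 1, Control 1 or Control 2 and that of *Bbc3* without CypD KO 2 or Control 1 (adjusted p from 0.0554 to 0.101). Rescaling left 6 of the higher calls and made *Bcl2* a lower call, and moved the higher share of all calls from 62.4% to 50.1%. The libraries labelled CypD OE differed from WT in 2 members that were higher and 4 that were lower, with 14.0% and 13.7% of all tested genes called. Of these, *Bcl2* lost its call without any 1 of the 4 libraries (adjusted p from 0.0655 to 0.128), and *Bax* without CypD OE 1 (adjusted p = 0.0546). CypD KO against the libraries labelled CypD OE was added after the values were seen, to order the groups, and called 6 members higher and 0 lower, with 29.6% and 19.3% of all tested genes called.

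**Figure D1:**
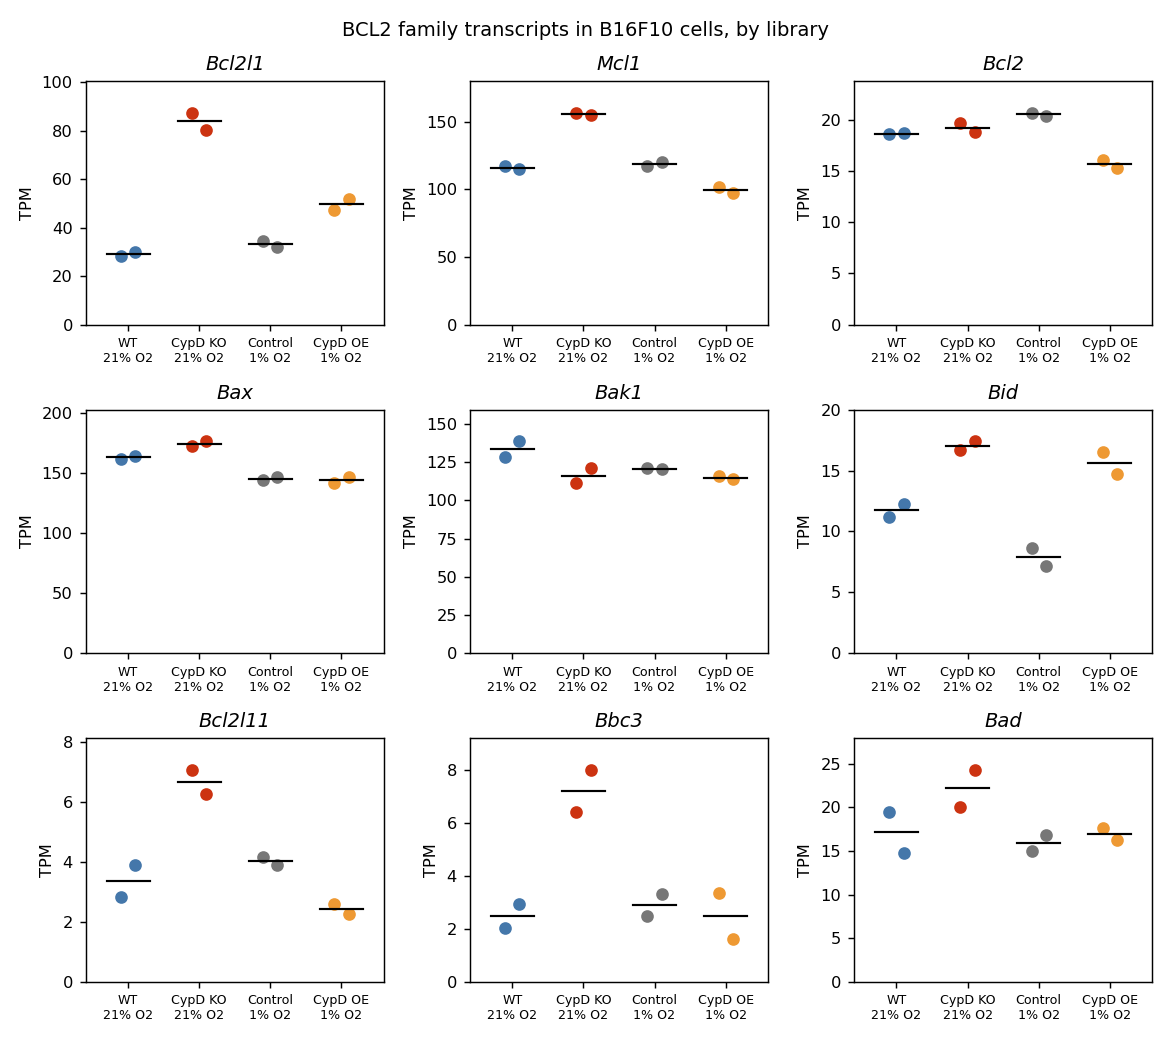
TPM of the 9 expressed members in each of the 8 libraries, with a vertical axis from 0 for each gene; each point is 1 library and each bar the mean of a group of 2. *Bcl2l1* stands between 80.5 and 87.4 TPM in CypD KO and between 28.5 and 30.02 in WT, and *Bid* is lowest in Control at 7.16 and 8.60 TPM.

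*Bcl2l1*, on chromosome 2 (GRCm39, 152622582 to 152673655, minus strand; ENSMUSG00000007659), encodes BCL-XL, a protector of the outer membrane. *Bcl2l1* stood at 28.5 and 30.02 TPM in the WT pair, at 87.4 and 80.5 in the CypD KO pair, at 34.4 and 31.9 in the Control pair and at 47.3 and 52.0 in the CypD OE pair. No library of one group overlapped another group, and the order from low to high was WT, Control, CypD OE, CypD KO. CypD KO exceeded WT by 1.49 ± 0.072 on the log2 scale (SE; adjusted p = 1.19e-05), and CypD OE exceeded Control by 0.57 ± 0.072 (SE; adjusted p = 0.00121). CypD KO was also above CypD OE, by 0.75 ± 0.072 (SE; adjusted p = 2.15e-04). The neighbours WT and Control were not called different, with a log2 difference of 0.17 and a 95% confidence interval of 0.0041 to 0.34 (adjusted p = 0.125). *Bcl2l1* kept its call in both main comparisons under every alternative that was run.

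*Mcl1*, on chromosome 3 (GRCm39, 95566026 to 95570487, plus strand; ENSMUSG00000038612), encodes a short-lived protector and was the most abundant of the 3 protector transcripts in every library. *Mcl1* stood at 117 and 115 TPM in the WT pair, at 156 and 155 in the CypD KO pair, at 117 and 120 in the Control pair and at 102 and 97.2 in the CypD OE pair. The CypD KO libraries were above and the CypD OE libraries below all others. CypD KO exceeded WT by 0.42 ± 0.037 (SE; adjusted p = 1.41e-04), and CypD OE was below Control by a log2 fold change of -0.25 ± 0.037 (SE; adjusted p = 0.00222) and below WT by -0.22 (adjusted p = 0.00582). Control and WT were next to each other in the order, with a difference of 0.034 and an interval of -0.054 to 0.12.

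*Bcl2*, on chromosome 1 (GRCm39, 106465908 to 106642060, minus strand; ENSMUSG00000057329), is the founding protector of the family. *Bcl2* stood at 18.6 TPM in the WT pair, at 19.6 and 18.8 in the CypD KO pair, at 20.7 and 20.4 in the Control pair and at 16.01 and 15.3 in the CypD OE pair. The narrow spread put CypD OE below every other library. Its log2 fold change against Control was -0.37 ± 0.061 (SE; adjusted p = 0.00371). The knockout left *Bcl2* within 0.044 of WT, with an interval of -0.10 to 0.19 and no call (adjusted p = 0.594), and the sign of that difference turned with rescaling. *Bcl2* was thus the protector that did not pass the test in CypD KO against WT, beside *Bcl2l1* and *Mcl1*, which did.

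Among the protectors that are members, *Bcl2l1* and *Mcl1* differed most between CypD KO and WT. The sequences upstream of these genes are shown to set beside the matches counted below. They are the bases that lie before the first annotated exon, from RefSeq promoter windows of GRCm38.p6 that were matched exactly to GRCm39, and read 5′ to 3′ along the gene. The *Bcl2l1* stretch is chr2:152673656-152673898, minus strand, and the *Mcl1* stretch chr3:95565782-95566025, plus strand. Capitals mark a match on either strand to ACGTG, the core of the hypoxia response element bound by HIF1, to its variant GCGTG, or to the FOXO site GTAAACA.
*Bcl2l1*: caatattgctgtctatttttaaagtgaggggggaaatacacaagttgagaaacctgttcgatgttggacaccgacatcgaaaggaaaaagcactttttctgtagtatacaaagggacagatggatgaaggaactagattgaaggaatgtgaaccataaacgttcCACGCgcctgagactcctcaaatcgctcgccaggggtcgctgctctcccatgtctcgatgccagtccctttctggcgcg
*Mcl1*: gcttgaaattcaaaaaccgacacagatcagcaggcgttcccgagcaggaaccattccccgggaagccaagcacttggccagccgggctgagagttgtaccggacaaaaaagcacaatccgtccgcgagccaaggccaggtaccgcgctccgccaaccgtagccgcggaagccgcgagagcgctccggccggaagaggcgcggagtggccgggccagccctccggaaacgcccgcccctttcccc
The *Bcl2l1* stretch held a single match, to GCGTG on the opposite strand, at -86 from the start site, and the *Mcl1* stretch held none of the 3. Over 32851 windows of the 250 bases before a start site, 16.6% held ACGTG, 28.2% held GCGTG and 3.17% held GTAAACA, so a match to GCGTG is common among promoters. The response element of p53 was found in 21 windows (0.0639%) and in none of the 15 windows of the members. The search allowed a gap of up to 13 bases within the element. With an element this rare among all windows, 15 windows are too few to show whether the members lack it. These windows covered 9 members, without *Pmaip1*, and only the 250 bases before a start site. A match says that these letters are present and no more.

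*Bax*, on chromosome 7 (GRCm39, 45111015 to 45116325, minus strand; ENSMUSG00000003873), encodes the cytosolic pore former and had the highest transcript level of the 10 genes in each group. *Bax* stood at 162 and 164 TPM in the WT pair, at 172 and 176 in the CypD KO pair, at 144 and 147 in the Control pair and at 141 and 146 in the CypD OE pair. The libraries at 1% oxygen lay below those at 21% oxygen, with no overlap. Control was below WT by a log2 fold change of -0.16 ± 0.034 (SE; adjusted p = 0.0147), and CypD OE and Control overlapped, with a difference of -0.014 and an interval of -0.094 to 0.066. The call that put CypD KO above WT, by 0.099 ± 0.034 (SE; adjusted p = 0.0471), was lost when any 1 of the 4 libraries was left out (adjusted p from 0.0852 to 0.175), and the difference was -0.00045 (adjusted p = 0.995) after rescaling. The call between Control and WT was lost without WT 1, WT 2 or Control 1 (adjusted p from 0.0529 to 0.0733). The stretch upstream of *Bax*, chr7:45116326-45116572, minus strand, is shown because it held ACGTG, within CACGTG, which reads the same on both strands and so counts as a match on each. A *Bbc3* window that is not printed also held ACGTG, at -64 and -63.
*Bax*: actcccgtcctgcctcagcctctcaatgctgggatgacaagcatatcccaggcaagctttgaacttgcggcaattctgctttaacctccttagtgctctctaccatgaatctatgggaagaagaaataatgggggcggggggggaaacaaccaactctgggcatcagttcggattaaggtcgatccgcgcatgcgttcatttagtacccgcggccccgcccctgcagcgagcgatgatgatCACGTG

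*Bak1*, on chromosome 17 (GRCm39, 27238784 to 27247983, minus strand; ENSMUSG00000057789), encodes the pore former that resides in the outer membrane. *Bak1* stood at 128 and 139 TPM in the WT pair, at 111 and 121 in the CypD KO pair, at 121 and 121 in the Control pair and at 116 and 114 in the CypD OE pair. WT was the highest group, while CypD KO overlapped both groups at 1% oxygen. CypD KO was below WT by a log2 fold change of -0.20 ± 0.053 (SE; adjusted p = 0.0196), a call that was lost without WT 2 (adjusted p = 0.103) or CypD KO 1 (adjusted p = 0.102). CypD OE was below WT by -0.21 (adjusted p = 0.0264), and that call was lost without WT 2, CypD OE 1 or CypD OE 2 (adjusted p from 0.0827 to 0.121). The lower 3 groups were CypD OE, CypD KO and Control, and no pair of them was called different. The pore formers together thus moved little, with group means that spanned 0.28 (*Bax*) and 0.21 (*Bak1*) on the log2 scale, the narrowest ranges of the 9 members.

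*Bid*, on chromosome 6 (GRCm39, 120862525 to 120894171, minus strand; ENSMUSG00000004446), encodes the BH3-only protein that caspase-8 cleaves to link death receptors to mitochondria. *Bid* stood at 11.2 and 12.3 TPM in the WT pair, at 16.7 and 17.4 in the CypD KO pair, at 8.60 and 7.16 in the Control pair and at 16.5 and 14.7 in the CypD OE pair. Control was the lowest group and both altered groups lay above both reference groups, with no overlap. CypD KO exceeded WT by 0.51 ± 0.11 (SE; adjusted p = 0.00765), CypD OE exceeded Control by 0.90 ± 0.11 (SE; adjusted p = 9.25e-04), and Control was below WT by -0.52 ± 0.11 (SE; adjusted p = 0.0146). The last call was lost without WT 2 (adjusted p = 0.0768) or Control 2 (adjusted p = 0.0664). CypD KO and CypD OE were neighbours that were not called different, with a difference of 0.12 and an interval of -0.13 to 0.38, and the call of CypD OE above WT (0.38; adjusted p = 0.0386) was lost without any 1 of its 4 libraries (adjusted p from 0.0683 to 0.175). *Bid* shares exonic bases with *Bcl2l13* on the opposite strand. Whether the counting used strand is not given in the sources used here, so reads of the shared bases cannot be assigned with certainty, and *Bcl2l13* is therefore given with the relatives below. The same limit holds for the other members except *Mcl1*, *Bbc3* and *Pmaip1*, whose exons overlap no other gene. *Bax* and *Bcl2l11* share exonic bases with *Gm45808* and *Gm74510* on the same strand, where strand would not separate the reads. *Bad* overlaps *Gpr137* and *Bak1* overlaps *Ggnbp1*, each on the opposite strand.

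*Bcl2l11*, on chromosome 2 (GRCm39, 127967958 to 128004476, plus strand; ENSMUSG00000027381), encodes BIM, which binds every protector and can activate BAX and BAK. *Bcl2l11* stood at 2.82 and 3.88 TPM in the WT pair, at 7.07 and 6.25 in the CypD KO pair, at 4.17 and 3.91 in the Control pair and at 2.59 and 2.26 in the CypD OE pair. The CypD KO libraries were above and the CypD OE libraries below all others, the same arrangement as for *Mcl1*. CypD KO exceeded WT by 0.83 ± 0.15 (SE; adjusted p = 0.00421). CypD OE was below Control by -0.56 ± 0.15 (SE; adjusted p = 0.0271), a call that was lost when any 1 of the 4 libraries was left out (adjusted p from 0.0641 to 0.121) and without the filter on low values (adjusted p = 0.0811). WT and Control were not called different, with a difference of 0.22 and an interval of -0.14 to 0.59, nor were CypD OE and WT, with -0.34 and -0.70 to 0.027. The values rest on between 5.13 and 15.3 fragments per library if all came from the shortest annotated transcript, and between 135 and 404 if all came from the longest.

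The bases before the first exon of *Bcl2l11*, chr2:127967708-127967957, plus strand, are shown because they held the only match to the FOXO letters GTAAACA in a printed stretch. FOXO factors are known to activate this gene. The letters were not particular to it, since a *Bbc3* window that is not printed held GTAAACA at -167. Of the windows not printed, a *Bbc3* window held 4 matches to GCGTG and the other *Bbc3* windows 1 each. A *Bad* window held 3 and the other *Bad* window 1. Part of the stretch belongs to an exon of *Gm75592*, a noncoding RNA on the opposite strand. Capitals mark GTAAACA at -227, which overlaps the first of 3 matches to GCGTG on the opposite strand at -222, -203 and -146.
*Bcl2l11*: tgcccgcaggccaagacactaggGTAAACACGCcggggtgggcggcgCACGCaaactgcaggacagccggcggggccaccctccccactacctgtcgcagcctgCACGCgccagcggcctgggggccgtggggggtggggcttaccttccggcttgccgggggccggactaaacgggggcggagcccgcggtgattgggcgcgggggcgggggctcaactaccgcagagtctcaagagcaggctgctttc

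*Bbc3*, on chromosome 7 (GRCm39, 16042318 to 16052130, plus strand; ENSMUSG00000002083), encodes PUMA, a BH3-only protein whose gene is a known target of p53. *Bbc3* stood at 2.02 and 2.92 TPM in the WT pair, at 6.4 and 8.01 in the CypD KO pair, at 2.48 and 3.33 in the Control pair and at 3.35 and 1.60 in the CypD OE pair. CypD KO stood alone above the rest, and the other groups overlapped one another. CypD KO exceeded WT by 1.25 ± 0.28 (SE; adjusted p = 0.00909), and the call was lost without WT 1 (1.06; adjusted p = 0.0543) or without CypD KO 2 (1.11; adjusted p = 0.0587). CypD OE and Control were not called different, with -0.21 and an interval of -0.86 to 0.45, which is wide enough to hold the -0.56 of *Bcl2l11*. The values rest on between 3.90 and 17.9 fragments per library if all came from the shortest transcript and between 48.4 and 217 if all came from the longest.

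*Bad*, on chromosome 19 (GRCm39, 6918902 to 6929280, plus strand; ENSMUSG00000024959), encodes a BH3-only protein that survival kinases hold inactive. *Bad* stood at 19.4 and 14.8 TPM in the WT pair, at 20.04 and 24.3 in the CypD KO pair, at 15 and 16.8 in the Control pair and at 17.7 and 16.2 in the CypD OE pair. The WT libraries spanned the range of both groups at 1% oxygen. The difference between CypD KO and WT was 0.36, with an interval of 0.012 to 0.71, and was not called (adjusted p = 0.0822), although without WT 1 it was 0.54 and passed (adjusted p = 0.0276). Against Control, CypD KO was called higher by 0.45 ± 0.15 (SE; adjusted p = 0.043), a call that was lost without CypD KO 2, Control 1 or Control 2 (adjusted p from 0.0764 to 0.21) and with rescaling (0.37; adjusted p = 0.0826). CypD OE and Control differed by 0.088, with an interval of -0.26 to 0.44.

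*Pmaip1*, on chromosome 18 (GRCm39, 66591604 to 66598636, plus strand; ENSMUSG00000024521), encodes NOXA, a BH3-only protein that binds MCL1. It was listed at 0 in all 8 libraries and was not tested. At the depth of these libraries, 3 fragments on its longest transcript would have given 0.0973 to 0.116 TPM. A level above that would be unlikely to read 0 in a library from counting error alone. Other reasons for a 0, such as how reads were assigned to genes, were not examined. No fold change can be given for it in any comparison.

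**Figure D2:**
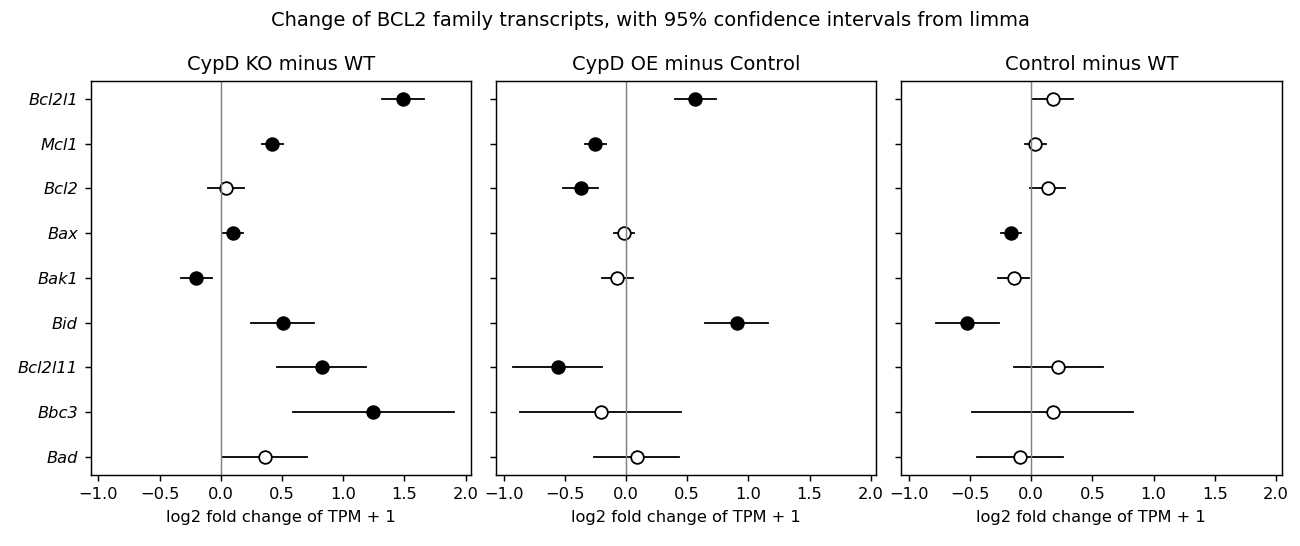
Log2 fold change of TPM + 1 for the 9 tested members in 3 comparisons, with points for the estimate, lines for the 95% confidence interval from limma, and filled points where the adjusted p was under 0.05. *Bcl2l1* (1.49) and *Bbc3* (1.25) lie farthest right for CypD KO minus WT, *Bid* (0.90) for CypD OE minus Control, and *Bid* (-0.52) farthest left for Control minus WT.

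TPM is a level per length, so the levels of genes may be added within a class. The 3 protectors summed to 164 TPM in both WT libraries, to 264 and 254 in the CypD KO pair, to 172 in both Control libraries and to 165 and 164 in the CypD OE pair. The sum in CypD KO was thus 259 ± 6.71 TPM (SD, n = 2) against 164 ± 0.37 TPM in WT, with no overlap. The pore formers had sums of 296 ± 8.62 TPM in WT, 290.5 ± 9.41 in CypD KO, 266 ± 2.03 in Control and 259 ± 2.11 in CypD OE (SD, n = 2 each). The ratio of the protector sum to the pore former sum was 0.57 and 0.54 in WT, 0.93 and 0.86 in CypD KO, 0.65 and 0.64 in Control, and 0.64 and 0.63 in CypD OE. Within a library this ratio is not affected by scaling, and it was higher in both CypD KO libraries than in the other 6. The BH3-only genes had sums of 34.7 ± 1.13 TPM in WT, 53.1 ± 4.09 in CypD KO, 30.7 ± 0.66 in Control and 37.4 ± 3.74 in CypD OE (SD, n = 2 each). As a percentage of the protector sum they were 21.2 ± 0.64 in WT and 20.5 ± 2.11 in CypD KO, which differ by less than the spread between the CypD KO libraries. The percentage was 17.8 ± 0.40 in Control and 22.7 ± 2.20 in CypD OE. Both Control libraries (17.5 and 18.1) lay below both WT libraries (21.6 and 20.7). Both CypD OE libraries (24.3 and 21.2) lay above both Control libraries. *Bad* and *Bid* made up most of the BH3-only sums, so the percentage shows little of *Bcl2l11* and *Bbc3*.

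The shares of the protectors within their sum also differed between the groups. *Bcl2l1* made up 17.4% and 18.4% of the protector sum in WT and 33.2% and 31.7% in CypD KO. It made up 19.9% and 18.5% in Control and 28.6% and 31.6% in CypD OE, although the protector sum was lower in CypD OE than in Control. *Mcl1* made up 70.8% ± 0.75 in WT, 60.1% ± 1.07 in CypD KO, 68.9% ± 1.09 in Control and 60.4% ± 1.82 in CypD OE (SD, n = 2 each). *Bcl2* made up 11.4% ± 0.051 in WT and 7.42% ± 0.029 in CypD KO, and 11.9% ± 0.10 in Control and 9.48% ± 0.29 in CypD OE. No test was run on these sums and shares.

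**Figure D3:**
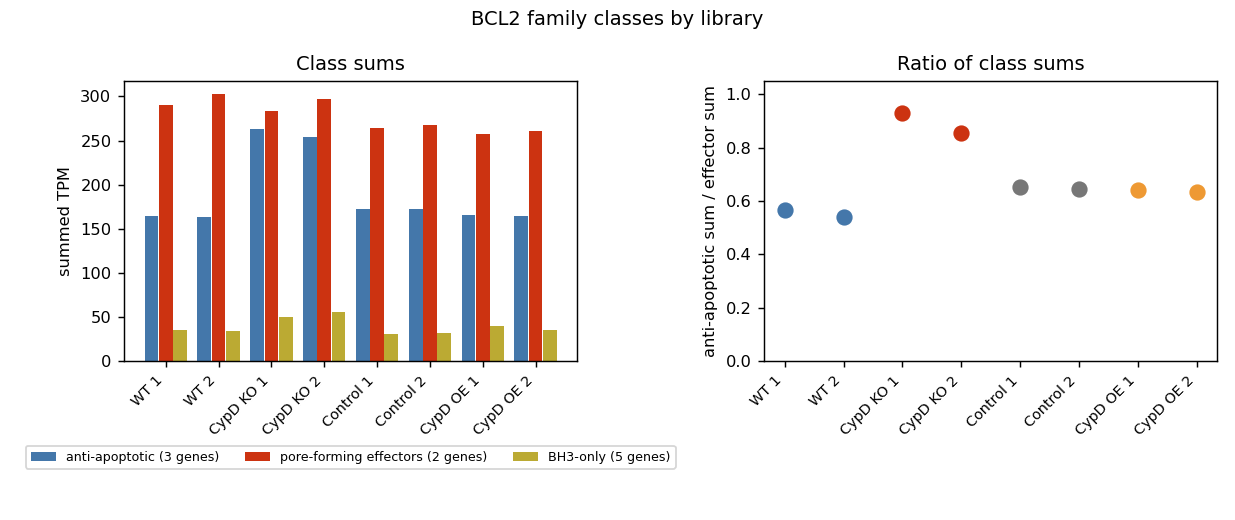
Left, summed TPM of the protectors (anti-apoptotic), pore-forming effectors and BH3-only members in each of the 8 libraries, as bars from 0; right, the ratio of the protector sum to the pore former sum in each library, with 1 point per library. The CypD KO libraries have ratios of 0.93 and 0.86, and the other 6 libraries lie between 0.54 and 0.65.

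The other genes of the family were less often expressed. Of 13 listed relatives, 5 passed the filter, and *Bcl2a1a*, *Bcl2a1b*, *Bcl2a1d* and *Bcl2l10* were listed at 0 in all libraries. *Bcl2l2*, which encodes the protector BCL-W, stood at 9.88 and 12.5 TPM in the WT pair, at 18.2 and 18.3 in the CypD KO pair, at 9.79 and 11.1 in the Control pair and at 15.4 and 14.2 in the CypD OE pair. Both altered groups lay above both reference groups, as for *Bid*, with 0.67 for CypD KO against WT (adjusted p = 0.0037) and 0.46 for CypD OE against Control (adjusted p = 0.022). *Bmf*, a BH3-only gene, read 2.29 and 0.63 TPM in the WT pair against 5.07 and 4.94 in the CypD KO pair, a log2 fold change of 1.37 (adjusted p = 0.012). *Bcl2l13*, the opposite-strand neighbour of *Bid*, stood at 35.01 and 32.6 TPM in the WT pair, at 38.2 in the CypD KO pair, at 46.9 and 36.5 in the Control pair and at 51.5 and 47.9 in the CypD OE pair. It was not called in CypD KO against WT, CypD OE against Control or Control against WT, and its lowest group was WT, whereas that of *Bid* was Control. The means of *Bcl2l13* were 33.8 TPM in WT, 38.2 in CypD KO, 41.7 in Control and 49.7 in CypD OE. Their direction was that of *Bid* in CypD KO against WT, CypD OE against Control and CypD OE against WT, and the opposite in Control against WT.

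*Bnip3* and *Bnip3l*, distant BH3-like relatives that act in mitophagy and are known HIF1 targets, were called in all 3 of the comparisons given here. *Bnip3* stood at 14.4 and 11.1 TPM in the WT pair, at 258 and 249 in the CypD KO pair, at 311 and 307 in the Control pair and at 13.6 and 12.5 in the CypD OE pair. Its log2 fold changes were 4.22 for CypD KO against WT, 4.51 for Control against WT and -4.47 for CypD OE against Control. *Bnip3l* stood at 42.4 and 47.8 TPM in the WT pair, at 153 and 139 in the CypD KO pair, at 212 and 202 in the Control pair and at 48.5 and 54.2 in the CypD OE pair, with log2 fold changes of 1.67, 2.18 and -1.99 in the same order. The change of *Bnip3l* in CypD KO against WT was thus close in size to the 1.49 of *Bcl2l1*. CypD KO and Control also lay above WT and CypD OE for the members *Bcl2*, *Mcl1* and *Bcl2l11*, but by narrow margins. For *Bcl2* the nearest libraries were CypD KO 2 at 18.81 TPM and WT 2 at 18.64. For *Mcl1* they were Control 1 at 117.45 TPM and WT 1 at 117.01, and for *Bcl2l11* Control 2 at 3.91 and WT 2 at 3.88. The share of all tested genes with this arrangement was not counted. These 3 members were not called in Control against WT, where their log2 fold changes were 0.13, 0.034 and 0.22.

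Downstream of the outer membrane, 3 of 14 genes of the apoptosome, caspases and factors released from mitochondria were called higher and 0 lower in CypD KO against WT, and the list had a median of -0.013. The called genes included *Casp8* (0.53), the caspase that cleaves BID, and *Cycs* (0.27), which encodes cytochrome c. In CypD OE against Control, 2 were called higher and 2 lower, among them *Casp6* (-0.76) and *Htra2* (0.56). Of all tested genes, 30.1% were called higher and 18.4% lower in CypD KO against WT, and 19.0% and 18.3% in CypD OE against Control. The counts of this and the next lists stand beside those shares. Of 6 inhibitors of apoptosis proteins, which block caspases or act in receptor signalling and division, 3 were called higher and 2 lower in CypD KO. The higher genes were *Naip2* (1.54), *Birc2* (0.68) and *Xiap* (0.28). *Naip2* passed the filter only through the CypD KO pair, at 2.23 and 2.09 TPM, and read 0.09 to 0.37 TPM elsewhere. The filter thus favoured its call. In CypD OE against Control 1 was higher, *Birc6* (0.19), and 1 lower, *Birc3* (-0.82). The 3 VDAC channels of the outer membrane, with which BCL2 proteins interact, had 0 calls in CypD KO against WT, with log2 fold changes between -0.096 and 0.084, while *Vdac3* (0.39) and *Vdac1* (-0.33) were called in CypD OE against Control.

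Of 13 tested genes of p53 and its targets other than the members, 10 were called higher and 1 lower in CypD KO against WT, with a median of 0.88, led by *Cdkn1a* (1.51), *Trp53inp1* (1.44) and *Mdm2* (1.32). *Trp53* itself was the lower gene (-0.16). Against Control, CypD KO was higher in 10 and lower in 0. In Control against WT, 0 were higher and 9 lower, with a median of -0.44, and in CypD OE against Control 6 were higher and 1 lower, with a median of 0.27. *Bbc3*, *Bax* and *Pmaip1* were the members taken here as known p53 targets, which need not be all of them. *Bbc3* and *Bax* were called higher in CypD KO than in each other group, although the difference of *Bax* from WT was -0.00045 after rescaling. *Bax* was also called lower in Control than in WT, where *Bbc3* was not called (0.17; adjusted p = 0.69). *Pmaip1*, at 0 in every library, shows no pattern. Of 9 tested stress factors known to act on BH3-only genes, 6 were higher and 1 lower in CypD KO against WT, led by *Jun* (1.99), *Atf3* (1.99) and *Trib3* (1.46), and 1 was higher and 2 lower in CypD OE against Control, led by *Myc* (0.75), *Ddit3* (-0.53) and *Jun* (-0.50). Of 8 regulators of BCL2 protein stability, 2 were higher in CypD KO, *Fbxw7* (0.46) and *Usp9x* (0.26), which act in opposite directions on MCL1. In CypD OE 1 was lower, *Ywhaz* (-0.45), which encodes a 14-3-3 protein that binds BAD. Over all tested genes, 30.1% were called higher and 18.4% lower in CypD KO against WT, and 19.0% and 18.3% in CypD OE against Control. The shares were 12.1% each way in Control against WT, and 27.4% and 16.5% in CypD KO against Control.

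**Figure D4:**
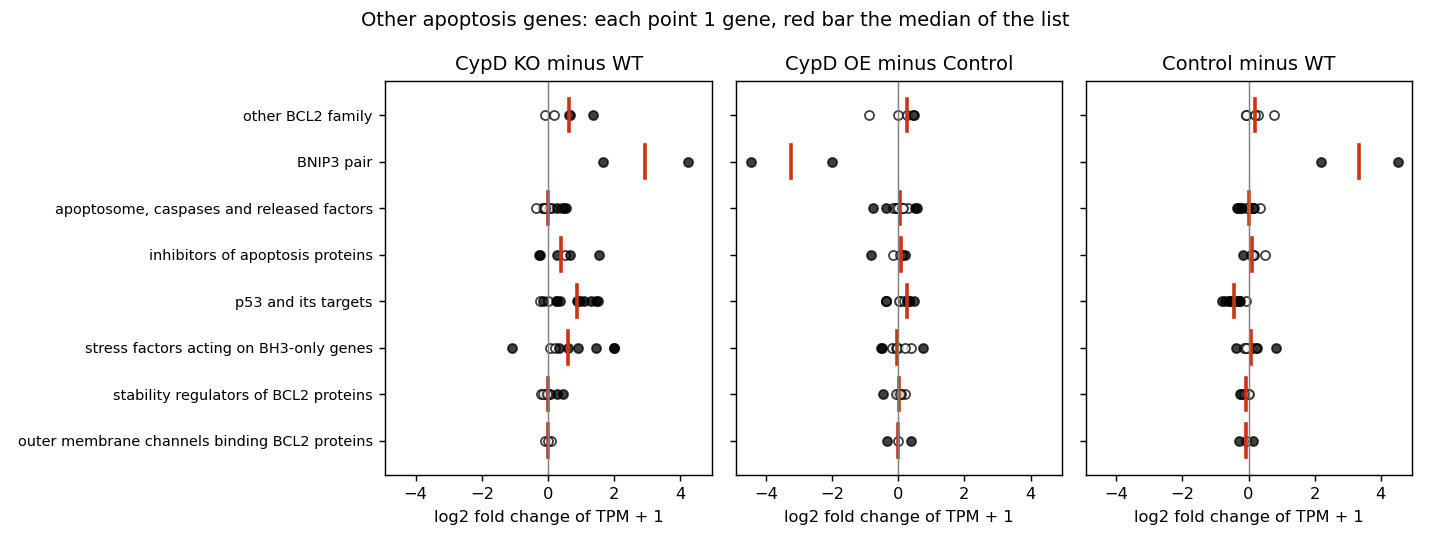
Log2 fold change of TPM + 1 of the tested genes of 8 lists in 3 comparisons, with 1 point per gene, filled where the adjusted p was under 0.05, and a red bar at the median of each list. The BNIP3 pair lies at medians of 2.95, -3.23 and 3.34, and the list of p53 and its targets at 0.88, 0.27 and -0.44, from left to right.

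*Bcl2l1* and *Bbc3* had the widest ranges of group means, 1.49 and 1.28 on the log2 scale. Over the 8 libraries, which share their 4 groups, the genes whose log2 levels followed *Bcl2l1* most closely among all tested genes were *Tgfbr2* (Pearson r = 0.996), *Noct* (0.994) and *Tiparp* (0.994). *Tgfbr2*, a TGF-beta receptor, stood at 8.47 and 8.70 TPM in the WT pair, at 21.5 and 20.7 in the CypD KO pair, at 9.96 and 9.61 in the Control pair and at 13.4 and 13.02 in the CypD OE pair. For *Bbc3* they were *Gsk3b* (0.985), *Birc2* (0.983) and *Acad11* (0.981). These correlations were selected as the highest of all and describe these libraries only.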

How the data were processed

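RNA of 8 libraries was sequenced after ribosomal RNA depletion. The authors used Cutadapt 3.4 for trimming, STAR 2.7.8a with Ensembl GRCm39 for alignment and RSEM 1.3.1 for quantification, and deposited TPM. Because TPM is relative within a library, each value depends on all others, and RSEM divides reads shared between genes. DESeq2 1.26.0 was their own test, on counts that were not used here. Groups were taken from the sample labels.

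The 13526 genes that reached 1 TPM in 2 or more of 8 libraries were tested with limma 3.58.1 (R 4.3.3, eBayes with trend, two-sided) on log2(TPM + 1), with 4 group means over all libraries and Benjamini-Hochberg adjustment, and called at 0.05. The fit was tested on simulated data first. The members and lists were chosen with earlier results of these data known. All members were named, with genes of the family list and the BNIP3 pair, the 3 called genes with the largest change in CypD KO against WT and in CypD OE against Control of each other list, and the 3 genes most like the 2 members with the widest range. Some genes that this rule names are not reported here. *Trp53* and single cell type markers were named after their values were seen. Gene positions and exon overlaps are from GENCODE M39. Motifs were searched with Python 3.11.15.

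TPM holds no depth. From the steps between low values, 1 fragment on 1000 bases was worth 0.0820 to 0.0979 TPM, and 83.2% to 86.3% of low values came within 0.15 of whole fragments, where 30% would if values were spread evenly. Limits from fragments cover counting error only. Replicates correlated at 0.983 to 0.985 on the log2 scale. Alternatives were another pseudocount, other filters, rescaling, fits without trend or of 4 libraries, a replicate block and leaving out each library.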

Additional observations from a re-analysis of the deposited data

How the results depend on the processing

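Of 99 member values recomputed per comparison, 83 kept direction and call for CypD KO against WT, 91 for CypD OE against Control, 90 for Control against WT, 76 for CypD OE against WT and 83 for CypD KO against Control. The signs that turned belonged to differences that were not called, except that of *Bax* in CypD KO against WT, and the cause was not tested. With rescaling, CypD KO minus WT became -0.051 for *Bcl2* and -0.00045 for *Bax*. With 1 library left out, CypD OE minus Control ranged from -0.040 to 0.012 for *Bax* and from -0.58 to 0.16 for *Bbc3*, Control minus WT from -0.28 to 0.093 for *Bad* and from -0.014 to 0.36 for *Bbc3*, CypD OE minus WT from -0.19 to 0.18 for *Bad* and from -0.40 to 0.34 for *Bbc3*, and CypD KO minus Control from -0.12 to 0.0015 for *Bak1*.

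Leaving out 1 library gave 2009 to 2109 genes called in Control against WT (3269 with all) with 0 to 1 members, where WT 2 gave 0, and 2295 to 2532 genes in CypD OE against WT (3744 with all) with 2 to 4 members, where CypD OE 1 gave 2. In CypD KO against Control it gave 4 to 6 members, where Control 1 gave 4. A fit of the 4 libraries gave 1981 genes and 1 member in Control against WT and 3 members in CypD OE against WT. Without a trend, 2813 genes and 1 member were called in Control against WT. Without the filter, 4 members were called in CypD KO against Control. The number of all genes called changes with the setting too, so these member counts alone say little about the members.

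The labels do not say whether libraries with the same replicate number belong together. The deviations of same-numbered libraries correlated at -0.030 to 0.11, highest for WT with CypD KO. With 2 libraries per group, these correlations cannot show whether such libraries shared a culture or batch. With a replicate block, 6285 genes and 7 members were called in CypD KO against WT and 4735 genes and 5 members in CypD OE against Control, and *Bid* in CypD OE against WT (adjusted p = 0.0565) and *Bad* in CypD KO against Control (adjusted p = 0.0659) lost their calls. Rescaling moved the protector sums to 167 TPM (WT), 247 TPM (CypD KO), 174 TPM (Control) and 166 TPM (CypD OE), and the pore former sums to 277 TPM (CypD KO) and 269 TPM (Control).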

Other observations

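*Ddit3*, a stress factor known to act on BH3-only genes, stood in the table under 2 identifiers. The values used above, from ENSMUSG00000025408, were 43.1 and 50.2 TPM in WT and 86.8 and 88.1 TPM in CypD KO. The other identifier, ENSMUSG00000116429, overlaps it and was listed at 0 in 3 libraries and reached 410.04 TPM in CypD KO, so the share of reads given to either cannot be judged from the table.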
